A study of Homo sapiens with 12 samples.

Results

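The genes described here are CIITA, the class II transactivator, the 3 subunits of the RFX complex it works with (RFX5, RFXAP and RFXANK), the invariant chain CD74, and 2 enzymes of the class II loading compartment, CTSS and IFI30. They were chosen by symbol, as class II transcription regulators and the invariant chain with its processing enzymes, and are 7 of the 78892 genes in the count table. All 7 had enough counts to be tested. Poly(A) RNA was sequenced from OCI-Ly7, a human lymphoma cell line (diffuse large B-cell, germinal-centre subtype), in 12 libraries of 4 groups of 3. In the HDAC3i+AZA group the cells received 5-azacitidine (AZA), a cytidine analogue that traps DNA methyltransferases, at 100 nM daily from day 0 to day 4, and an inhibitor of the histone deacetylase HDAC3 (HDAC3i) at 15 µM on days 2 and 4. The HDAC3i group received the inhibitor with AZA at 0 nM, the AZA group received AZA with the inhibitor at 0 µM, and the vehicle group had both at 0. The series is labelled as day 5, and its sources used here leave the inhibitor unnamed. All groups are of the same line. Nothing in the labels ties the 3 libraries of a group to separate cultures, and p-values therefore cover no more than the spread among libraries, possibly technical.

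The libraries held 35947872 to 36337086 counts each. All 5 B-cell markers examined (MS4A1, CD79A, CD79B, CD22 and PAX5) were present, with a summed level of 3499 to 3520.0 counts scaled to 1000000 per library (CPM) in HDAC3i+AZA, 3450.1 to 3492 CPM in HDAC3i, 2741 to 2811 CPM in AZA and 2576 to 2670.4 CPM in vehicle. The mitochondrially encoded share of counts averaged 13.6 ± 1.51% in HDAC3i+AZA, 12.5 ± 0.45% in HDAC3i, 11.3 ± 2.12% in AZA and 10.03 ± 0.48% in vehicle (SD, n = 3 each). A gene was called where its adjusted p was under 0.05 in edgeR's quasi-likelihood test with Benjamini-Hochberg adjustment over 17869 genes, and all adjusted p-values below come from that test. In bulk RNA, fewer cells making a transcript and less of the transcript per cell cannot be told apart.

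MHC class II genes share a promoter module. The RFX complex binds its X box, NF-Y binds the CCAAT sequence of its Y box, CREB-family factors bind between them, and CIITA, which does not bind DNA itself, is recruited to these factors and sets whether the gene is transcribed. B cells make CIITA constitutively, CD74 escorts new class II chains to the endosome and blocks their groove, cathepsin S (CTSS) trims CD74, and IFI30 (GILT) reduces disulphide bonds of antigens there. In germinal-centre B cells, BCL6 brings HDAC3 co-repressor complexes to class II genes, where they oppose the acetyltransferase CREBBP.

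RefSeq promoter sequences (GRCh38.p14) were found for 5 of the 7 genes, CIITA and CTSS being the genes without an entry. The 250 bases before the most upstream RefSeq start are shown for CD74 and IFI30, which rose with the inhibitor, and for RFX5 and RFXAP, which fell, because these are the members that changed in opposite directions. Bases run 5′ to 3′ on the gene's strand, and capitals mark matches to CCAAT (NF-Y), GCAAC (a half-site of the X1 box) or TGACG (a CREB half-site of the X2 box), searched on both strands.
CD74, chr5:150412911-150413160, minus strand: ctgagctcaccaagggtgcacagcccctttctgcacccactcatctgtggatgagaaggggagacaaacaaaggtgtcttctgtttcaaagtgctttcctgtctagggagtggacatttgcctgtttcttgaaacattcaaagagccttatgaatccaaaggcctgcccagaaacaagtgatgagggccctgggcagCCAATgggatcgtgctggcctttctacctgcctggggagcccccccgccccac
IFI30, chr19:18173563-18173812, plus strand: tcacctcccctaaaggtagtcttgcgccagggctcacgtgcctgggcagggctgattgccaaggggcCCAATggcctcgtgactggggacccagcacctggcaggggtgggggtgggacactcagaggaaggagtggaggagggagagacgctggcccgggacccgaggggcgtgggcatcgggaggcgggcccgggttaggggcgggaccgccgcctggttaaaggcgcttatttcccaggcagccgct
RFX5, chr1:151347253-151347502, minus strand: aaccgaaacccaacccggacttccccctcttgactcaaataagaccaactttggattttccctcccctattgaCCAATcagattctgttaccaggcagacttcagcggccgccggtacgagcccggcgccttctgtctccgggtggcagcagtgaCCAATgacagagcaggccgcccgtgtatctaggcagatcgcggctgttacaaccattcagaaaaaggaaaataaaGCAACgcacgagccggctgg
RFXAP, chr13:36818972-36819221, plus strand: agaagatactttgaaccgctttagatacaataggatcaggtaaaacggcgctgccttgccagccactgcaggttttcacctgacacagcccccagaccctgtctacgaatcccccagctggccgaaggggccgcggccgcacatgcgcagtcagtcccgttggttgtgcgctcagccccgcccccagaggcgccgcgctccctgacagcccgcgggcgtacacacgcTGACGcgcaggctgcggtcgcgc
CCAAT stood in the sense direction with its first base at -53 from the start in CD74, at -183 in IFI30, and at -177 and -95 in RFX5. RFX5 also held GCAAC at -20, and RFXAP held TGACG at -23. Over the 250-base windows of 35116 promoters, CCAAT was present in 32.0%, GCAAC in 28.2% and TGACG in 21.2%. The window of RFXANK held none of the 3 motifs. These matches describe letters and do not show binding. RefSeq starts can differ from those of the annotation used for counting. That annotation begins IFI30 at 18173162, so the whole window of IFI30 lies within the counted gene. The windows of CD74, RFX5 and RFXANK overlap their counted genes in part.

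With the inhibitor alone, CD74, CIITA and IFI30 rose and RFX5 and RFXAP fell, so that CIITA moved opposite to 2 of the 3 RFX subunits. CD74 rose 1.599-fold, CIITA 1.26-fold and IFI30 1.999-fold against vehicle, while RFX5 was at 0.725 and RFXAP at 0.822 of its vehicle level. RFXANK and CTSS did not pass the test. In all, 5 of the 7 genes were called (3 higher, 2 lower). Of all tested genes 51.3% were called in this comparison, 26.4% higher and 24.9% lower, and with 7 genes the count says little against that background.

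CIITA (ENSG00000179583, chromosome 16, 10866222 to 10943021, plus strand, GRCh38) had 121, 92.1 and 110.0 CPM in HDAC3i+AZA libraries 1 to 3, 107, 110.4 and 112 CPM in HDAC3i, 76.8, 73.1 and 86.2 CPM in AZA, and 83.4, 89.1 and 88.6 CPM in vehicle. Every library with the inhibitor was above every library without it, and HDAC3i+AZA library 2 was the lowest of the 6 with it. Against vehicle the log2 fold change of CIITA was 0.33 ± 0.069 (SE) in HDAC3i, with an adjusted p of 0.000236. In HDAC3i+AZA it was 0.31 ± 0.069 against vehicle (adjusted p = 0.000333) and 0.46 ± 0.069 against AZA (adjusted p = 2.47e-06). Between HDAC3i+AZA and HDAC3i the difference was -0.016 on the log2 scale, with a 95% interval of -0.16 to 0.12. AZA alone gave -0.15 ± 0.069 (adjusted p = 0.198), with overlapping libraries. Of the annotated exonic bases of CIITA, 22.57% are also exons of other genes, mostly DEXI on the opposite strand and an unnamed gene on the same strand that had 0 counts. Reads that overlap more than 1 gene were not counted, so the level of CIITA excludes these bases.

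RFX5, the RFX subunit that contacts DNA (ENSG00000143390, chromosome 1, 151340640 to 151347326, minus strand), had 124, 117 and 113 CPM in HDAC3i+AZA, 109, 110.4 and 108 CPM in HDAC3i, 155, 158 and 157 CPM in AZA, and 149, 154 and 148 CPM in vehicle. The 6 libraries with the inhibitor were all below the 6 without it. Its log2 fold change was -0.46 ± 0.049 in HDAC3i (adjusted p = 8.77e-09) and -0.34 ± 0.049 in HDAC3i+AZA (adjusted p = 8.74e-07), both against vehicle. RFX5 in HDAC3i+AZA was 0.12 ± 0.049 higher on the log2 scale than in HDAC3i, with no overlap of libraries, and this did not pass the adjustment (adjusted p = 0.143).

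RFXAP, the RFX-associated subunit (ENSG00000133111, chromosome 13, 36819222 to 36829104, plus strand), had 20.3, 18.2 and 23.8 CPM in HDAC3i+AZA, 23.5, 24.4 and 21.8 CPM in HDAC3i, 26.2, 28.9 and 27.0 CPM in AZA, and 28.4, 28.2 and 27.9 CPM in vehicle. Libraries with the inhibitor were again all lower than those without it, and HDAC3i+AZA library 2 was the lowest of the 12. RFXAP fell by 0.28 ± 0.081 on the log2 scale in HDAC3i (adjusted p = 0.00446) and by 0.43 ± 0.081 in HDAC3i+AZA (adjusted p = 4.83e-05), against vehicle.

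RFXANK, the ankyrin-repeat subunit of the complex (ENSG00000064490, chromosome 19, 19192229 to 19201869, plus strand), had 62.9, 67.0 and 58.8 CPM in HDAC3i+AZA, 59.5, 58.9 and 57.5 CPM in HDAC3i, 61.9, 62.6 and 65.7 CPM in AZA, and 57.8, 54.4 and 58.0 CPM in vehicle. Its HDAC3i libraries overlapped those of vehicle, and its HDAC3i+AZA libraries lay just above vehicle. RFXANK differed from vehicle by 0.043 ± 0.060 on the log2 scale in HDAC3i (adjusted p = 0.582) and by 0.15 ± 0.059 in HDAC3i+AZA (adjusted p = 0.0286), the smallest called change among the members there. This call was lost, at adjusted p 0.0518 to 0.184, without vehicle library 1, vehicle library 2 or HDAC3i+AZA library 2. Opposite-strand genes (BORCS8 and NR2C2AP) share 23.33% of its exonic bases.

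**Figure D1:**
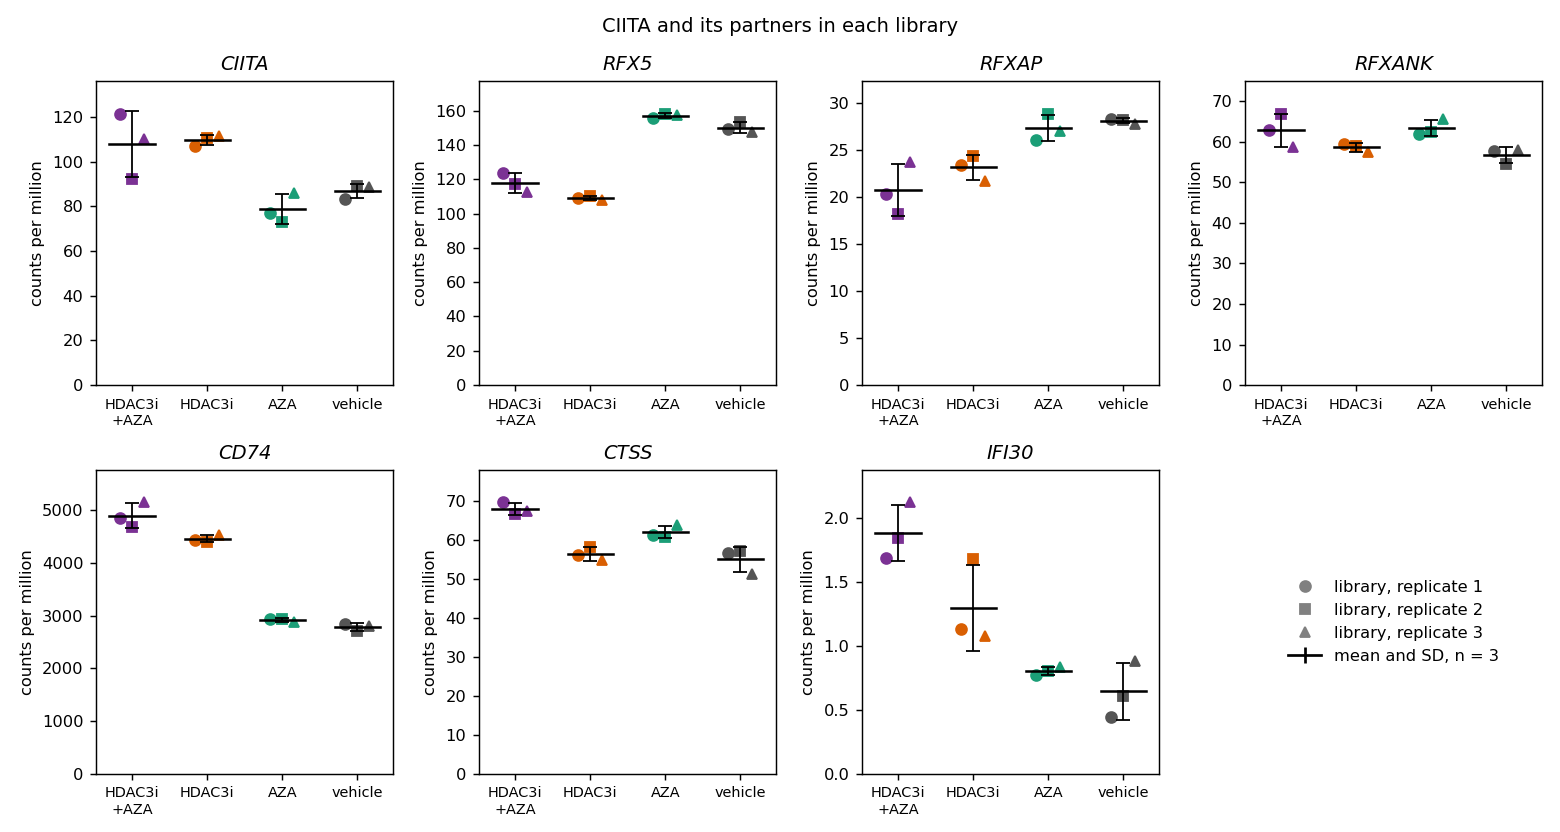
Level of each gene (y axis, CPM on a linear scale from 0) in HDAC3i+AZA, HDAC3i, AZA and vehicle. Each point is 1 library, the long bar is the mean and the short bars the SD of 3 libraries; CIITA, CD74 and IFI30 stand higher, and RFX5 and RFXAP lower, in both groups with the inhibitor.

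CD74 (ENSG00000019582, chromosome 5, 150401637 to 150412969, minus strand) had 4864, 4681 and 5154 CPM in HDAC3i+AZA, 4442, 4407 and 4539 CPM in HDAC3i, 2930.0, 2941 and 2878 CPM in AZA, and 2843, 2702 and 2798 CPM in vehicle. In CPM the 4 groups did not overlap, in that order from high to low. AZA differed from vehicle by 0.065 ± 0.051 on the log2 scale and was not called (adjusted p = 0.513). On the normalized log2 scale, AZA library 3 (11.455) lay below vehicle libraries 1 and 3 (11.474 and 11.477), so these 2 groups overlapped there. CD74 transcripts made up 0.468 to 0.515% of all counts of a library in HDAC3i+AZA, 0.441 to 0.454% in HDAC3i, 0.288 to 0.294% in AZA and 0.270 to 0.284% in vehicle. Against vehicle the log2 fold change was 0.82 ± 0.052 in HDAC3i+AZA (adjusted p = 2.43e-13) and 0.68 ± 0.052 in HDAC3i (adjusted p = 1.97e-11). HDAC3i+AZA stood 0.14 ± 0.051 above HDAC3i on the log2 scale, which did not pass the adjustment (adjusted p = 0.0861). No other annotated gene shares exonic bases with CD74 or CTSS.

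CTSS, the endosomal protease that cuts the last CD74 fragments in B cells (ENSG00000163131, chromosome 1, 150730079 to 150765957, minus strand), had 69.6, 66.8 and 67.3 CPM in HDAC3i+AZA, 56.0, 58.3 and 54.9 CPM in HDAC3i, 61.3, 60.8 and 63.8 CPM in AZA, and 56.5, 57.2 and 51.4 CPM in vehicle. It is the member for which HDAC3i libraries overlapped vehicle while HDAC3i+AZA libraries were above every other library. The log2 fold change of CTSS was 0.031 ± 0.056 in HDAC3i against vehicle (adjusted p = 0.671) and 0.17 ± 0.055 in AZA against vehicle (adjusted p = 0.0571). In HDAC3i+AZA it was 0.31 ± 0.055 against vehicle (adjusted p = 2.79e-05), 0.28 ± 0.055 against HDAC3i (adjusted p = 0.00219) and 0.14 ± 0.055 against AZA (adjusted p = 0.032). The call against AZA was lost, at adjusted p 0.0552 to 0.135, when AZA library 2 or 3 or HDAC3i+AZA library 1 or 3 was left out.

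IFI30, the thiol reductase (ENSG00000216490, chromosome 19, 18173162 to 18178117, plus strand), had the fewest counts of the members. These were 61, 67 and 77 counts in HDAC3i+AZA, 41, 61 and 39 in HDAC3i, 28, 29 and 30 in AZA, and 16, 22 and 32 in vehicle. These are 1.69, 1.84 and 2.13 CPM in HDAC3i+AZA, 1.13, 1.68 and 1.08 CPM in HDAC3i, 0.772, 0.804 and 0.835 CPM in AZA, and 0.442, 0.609 and 0.887 CPM in vehicle. Libraries with the inhibitor were all above those without it, but the counts are few and the vehicle libraries differ among themselves. The log2 fold change of IFI30 against vehicle was 1.55 ± 0.26 in HDAC3i+AZA (adjusted p = 1.51e-05) and 0.999 ± 0.28 in HDAC3i (adjusted p = 0.00345). Another gene of the same strand shares 42.53% of its exonic bases, and reads there were not counted for either. The counts of IFI30 therefore understate its level by an unknown amount, and its fold changes are those of the remaining bases.

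Markers of other cell types were measured in the same libraries, since monocytes, macrophages and dendritic cells also express class II, CTSS and IFI30. The 10 markers of monocytes, macrophages and dendritic cells summed to 148 to 153 CPM in HDAC3i+AZA, 122 to 128 CPM in HDAC3i, 42.9 to 45.2 CPM in AZA and 36.3 to 39.0 CPM in vehicle. Nearly all of each sum was CD1C, which averaged 145 CPM in HDAC3i+AZA, 121 in HDAC3i, 42.5 in AZA and 36.4 in vehicle. Of these 10, 2 had 0 counts in all libraries of HDAC3i+AZA, 3 in HDAC3i, 5 in AZA and 5 in vehicle, with S100A8 and CLEC9A at 0 in all 4 groups. In HDAC3i+AZA and in HDAC3i against vehicle, 4 of the 6 tested markers rose (CD1C, LYZ, CSF1R and MNDA). FCN1 was not called, and CD14 was at -0.82 and -0.24 and was not called. Of all tested genes, 29.6% and 26.4% were called higher in these comparisons. LYZ, CSF1R and MNDA had 2, 2 and 0 counts over the vehicle libraries. Only the groups with the inhibitor gave them enough counts to be tested, so the count of 4 carries no weight. The 6 T-cell markers summed to 12.3 to 13.98 CPM in HDAC3i+AZA and 7.36 to 8.23 CPM in HDAC3i. In AZA the sum was 1.36 to 2.00 CPM and in vehicle 0.939 to 1.28 CPM, with CD8A at 0. All 4 that were tested rose in HDAC3i+AZA and in HDAC3i against vehicle. Of these, CD3D, CD3G and CD4 had 2, 10 and 2 counts over the vehicle libraries. They too had enough counts only with the inhibitor, and CD8A and CD2 were not tested, so this count carries no weight either. The part of all these markers in the changes of the members was not tested.

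AZA alone changed none of the 7 genes past the threshold in edgeR. The comparison called 9.06% of all tested genes, 4.31% higher and 4.75% lower. At an unadjusted p under 0.05, which 21.9% of all tested genes met, there were 3 members, CTSS and RFXANK above vehicle and CIITA below it. DESeq2 called 1 (CTSS) and limma voom called 0.

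With both drugs all 7 genes were called against vehicle, 5 higher and 2 lower, in a comparison that called 57.1% of all tested genes, 29.6% higher and 27.5% lower. The median log2 fold change of the 7 was 0.31, the value of CTSS, against 0.0079 over all tested genes. The members were chosen with earlier results known and moved in both directions, so this median only describes them. Against AZA, 6 of the 7 were called (4 higher, 2 lower), with 53.8% of all genes called, 28.7% higher and 25.1% lower. RFXANK was the exception at -0.0016 ± 0.059. Against HDAC3i, 1 of the 7 was called, CTSS, with 7.34% of all genes called, 4.51% higher and 2.83% lower. The comparisons with vehicle share the vehicle libraries, and those with HDAC3i+AZA share its libraries, so they are not independent.

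Whether the 2 drugs added on the log2 scale was asked with the interaction, the difference of HDAC3i+AZA from HDAC3i minus the difference of AZA from vehicle. None of the 7 genes was called, at an unadjusted p under 0.05 there were 0 (12.7% of all tested genes), and DESeq2 and limma voom called 0, where 0.716% of all tested genes were called by edgeR, 0.263% higher and 0.453% lower. The estimates ran from -0.11 (RFXAP) to 0.24 (IFI30). The 95% interval was -0.069 to 0.23 for CD74, -0.066 to 0.33 for CIITA, -0.34 to 0.13 for RFXAP and -0.55 to 1.02 for IFI30. For CIITA, RFXAP and IFI30 it holds values as large as the gene's own change with the inhibitor alone.

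**Figure D2:**
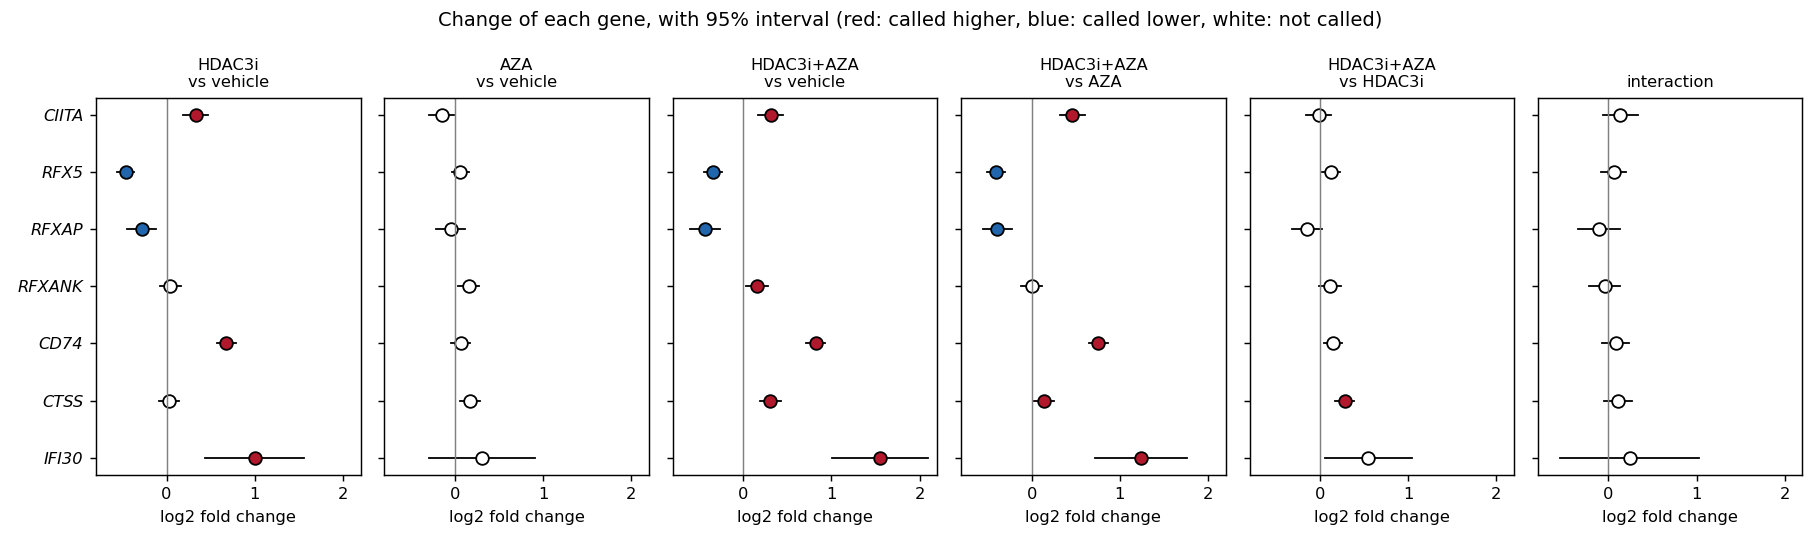
Log2 fold change (x axis) of each gene in each comparison, with its 95% interval. Red points are called higher and blue points lower at an adjusted p under 0.05, and white points are not called; CTSS is the gene called in HDAC3i+AZA against HDAC3i, and the intervals of IFI30 are the widest.

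Per kilobase of annotated exon, CD74 was far above the rest. Its level was 1083 CPM per kilobase in HDAC3i+AZA, 986 in HDAC3i, 644 in AZA and 614 ± 15.99 in vehicle (mean, SD, n = 3), rank 32, 35, 40 and 42 from the top among tested genes. The order in vehicle went on with RFX5 at 33.0 CPM per kilobase, RFXANK at 22.7, RFXAP at 12.2, CTSS at 7.99, CIITA at 3.86 and IFI30 at 0.276, and no neighbours in it overlapped. With the inhibitor RFX5 and RFXANK lay close: they stood at 25.9 and 25.1 CPM per kilobase in HDAC3i+AZA and at 24.0 and 23.4 in HDAC3i, where their libraries overlapped. RFXAP and CTSS also overlapped in HDAC3i+AZA, at 8.996 and 9.86 CPM per kilobase. The annotated exons of CIITA add up to 22553 bases over all its transcripts, so its level per kilobase depends on how many of them these cells use. The lengths also include bases shared with other genes, where reads overlapping both were not counted. The shared part is 42.53% for IFI30, 23.33% for RFXANK, 22.57% for CIITA, 11.64% for RFX5 and 5.29% for RFXAP. Levels of these genes are therefore low by unequal amounts, and the order of genes that lie close, such as RFX5 and RFXANK, is uncertain. The place of IFI30, which has the largest shared part, is uncertain too.

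**Figure D3:**
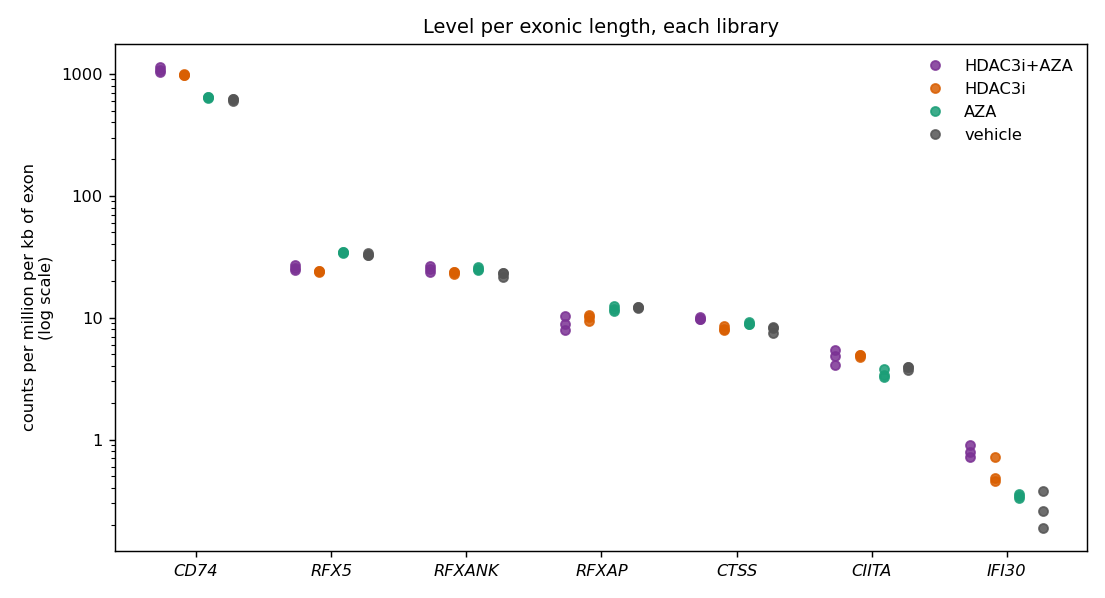
Level of each gene per kilobase of annotated exon (y axis, log scale, CPM per kilobase) in HDAC3i+AZA, HDAC3i, AZA and vehicle. By the reads that were counted, CD74 is the highest in every group and IFI30 the lowest.

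Ratios of 2 pairs of genes within a library were chosen after their values were seen and are given with no test. The ratio of CIITA to RFX5 counts was 0.786 to 0.981 in HDAC3i+AZA and 0.98 to 1.03 in HDAC3i, against 0.462 to 0.548 in AZA and 0.559 to 0.599 in vehicle. CD74 counts were 1.98 to 2.19 times those of HLA-DRA, the class II alpha chain, in HDAC3i+AZA and 2.104 to 2.18 times in HDAC3i, against 2.45 to 2.55 times in AZA and 2.73 to 2.86 times in vehicle. In HDAC3i against vehicle, the log2 fold change of HLA-DRA was 1.07 ± 0.054 and that of CD74 was 0.68 ± 0.052.

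**Figure D4:**
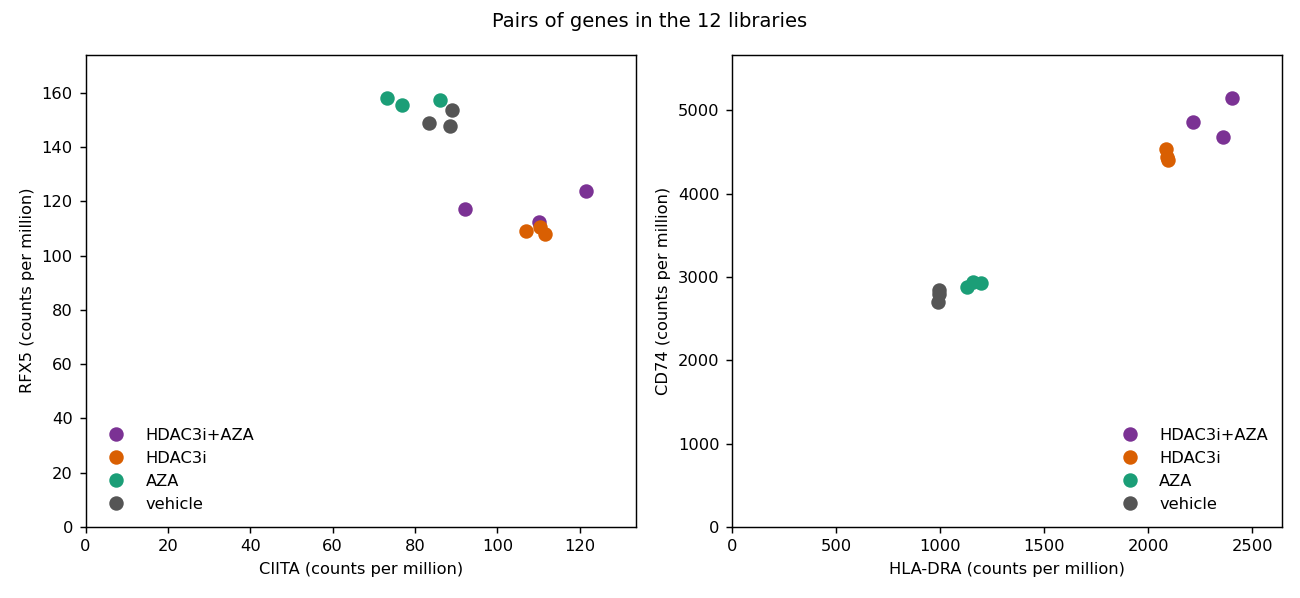
Left, RFX5 (y axis) against CIITA (x axis); right, CD74 (y axis) against HLA-DRA (x axis), all in CPM on linear scales from 0, with 1 point per library coloured by group. Libraries with the inhibitor lie right of and below the others on the left, and right of and above them on the right.

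All 13 class II chains and peptide editors examined rose in HDAC3i+AZA and in HDAC3i against vehicle, with median log2 fold changes of 1.26 and 1.07, and 7 of 13 rose in AZA (median 0.22). Of all tested genes, 29.6%, 26.4% and 4.31% were called higher in these comparisons. CD74, at 0.82 and 0.68, was below these medians with both drugs and with the inhibitor alone. HLA-DQA1 and HLA-DQB1 had the largest increases in HDAC3i+AZA, both 1.74. That of HLA-DQB1 rests on few counts, 91 over the HDAC3i+AZA libraries and 27 over vehicle. HLA genes have near-identical copies between which reads can be split, so values of single chains are uncertain.

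Most other factors of the class II promoter fell. Of 11 (NF-Y subunits, CREB-family factors and coactivators), 8 fell in HDAC3i+AZA, 9 in HDAC3i and 3 in AZA, and the rest did not pass the test. Of all tested genes, 27.5%, 24.9% and 4.75% were called lower in these comparisons. The acetyltransferase CREBBP fell by 0.76 ± 0.079 and SMARCA4, the SWI/SNF ATPase, by 0.65 ± 0.050 on the log2 scale in HDAC3i+AZA against vehicle (adjusted p = 5.42e-09 and 1.18e-11). In HDAC3i they fell by 0.61 and 0.42. NLRC5, the relative of CIITA that acts on class I genes, was at -0.23 in HDAC3i+AZA, -0.20 in HDAC3i and -0.24 in AZA, and was called lower in each.

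Among 11 factors known to act on the promoters or protein of CIITA, 3 rose and 4 fell in HDAC3i+AZA, and 4 rose and 6 fell in HDAC3i. The shares of all tested genes were 29.6% higher and 27.5% lower in HDAC3i+AZA and 26.4% higher and 24.9% lower in HDAC3i, so the count in HDAC3i+AZA is near the background. PRDM1 (BLIMP-1), which represses CIITA in plasma cells, rose by 1.95 ± 0.12 on the log2 scale in HDAC3i+AZA and by 2.03 ± 0.12 in HDAC3i, with means of 8.81 CPM in HDAC3i+AZA, 9.31 in HDAC3i, 2.39 in AZA and 2.28 in vehicle. CIITA and this repressor were both higher with the inhibitor. IRF1, an activator of the interferon-responsive CIITA promoter, rose by 1.01 in HDAC3i+AZA. IRF4 fell by 1.03 and TCF3 (E2A) by 0.58. FBXO11, a ubiquitin ligase subunit that targets CIITA protein, fell by 0.46 in HDAC3i+AZA and by 0.38 in HDAC3i. Other genes share 37.72% of its exonic bases.

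**Figure D5:**
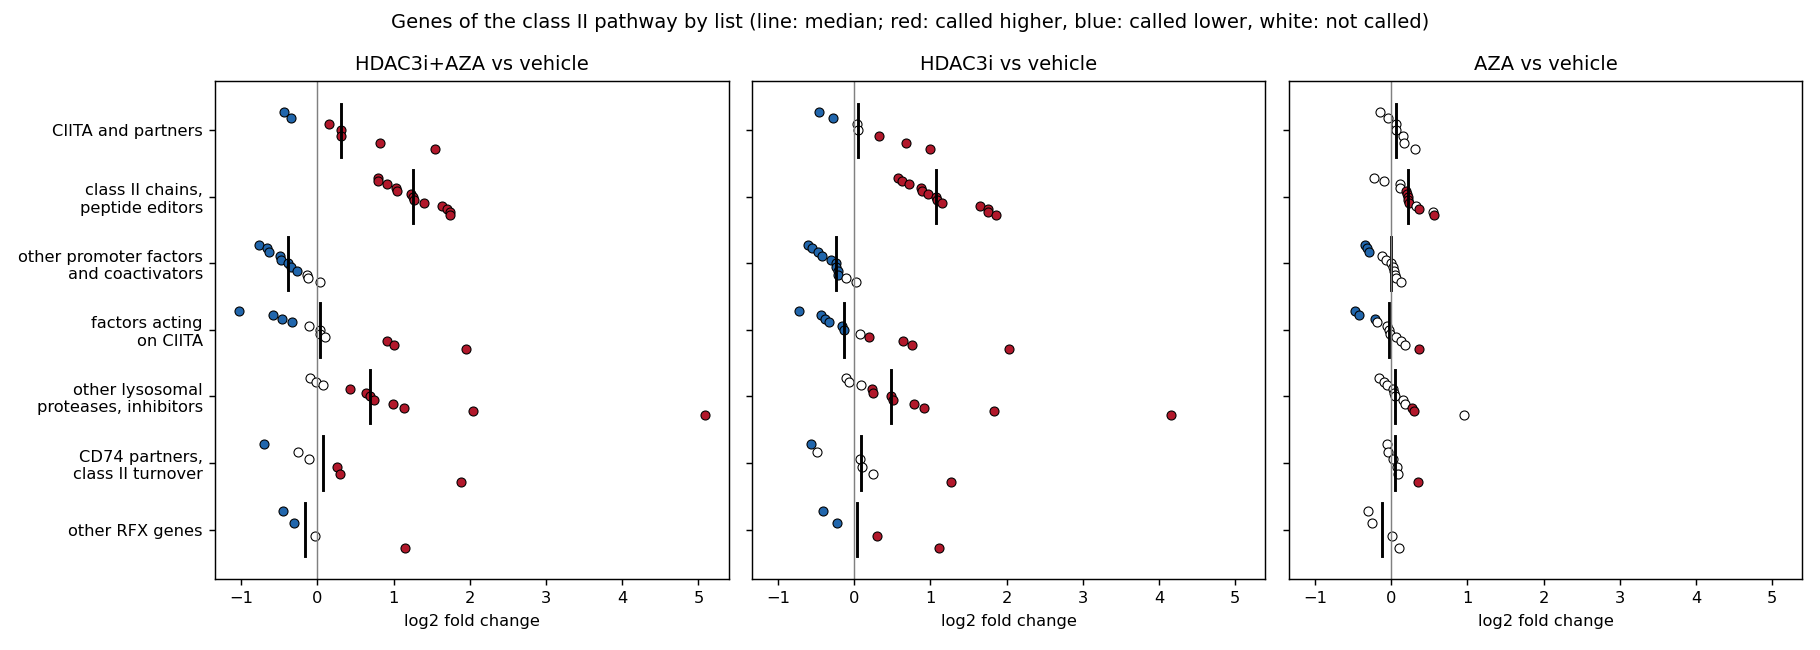
Log2 fold change against vehicle (x axis, the same in all panels) of each tested gene of the lists, for HDAC3i+AZA, HDAC3i and AZA. Vertical bars are list medians. In the panels with the inhibitor, the median of class II chains lies to the right of 0 and that of other promoter factors to the left.

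Of 15 other lysosomal proteases and inhibitors, 11 were tested. Of these, 8 rose in HDAC3i+AZA (median of the 11, 0.70), 8 in HDAC3i (median 0.48) and 2 in AZA, where 29.6%, 26.4% and 4.31% of all tested genes were called higher. CTSC, CTSD and SPPL2A were not called in the groups with the inhibitor, and 48.04% of the exonic bases of CTSD are shared with other genes. CTSV (cathepsin V) rose by 2.05 ± 0.20 and LGMN (asparaginyl endopeptidase), which makes early cuts in CD74, by 0.70 ± 0.058 on the log2 scale in HDAC3i+AZA. LGMN was also called in the interaction (0.38 ± 0.082, adjusted p = 0.0242), the 1 called of the 11. Of all tested genes 0.263% were called higher there. Interaction calls over all genes ranged from 35 to 689 without 1 library, so this call is uncertain. CSTA, an intracellular cathepsin inhibitor, averaged 1.99 CPM in HDAC3i+AZA, 1.05 in HDAC3i, 0.111 in AZA and 0.0553 in vehicle. Its 3 vehicle libraries held 6 counts in all, and only the groups with the inhibitor gave it enough counts to be tested. The place of CSTA among the 8 that rose is therefore no support. SPPL2A, the protease that clears the CD74 stub from the membrane, was at -0.011 (adjusted p = 0.925) and CTSL had 0 counts in every library, a limit of 0.0826 to 0.0835 CPM (3 counts). CST3 was not tested, with 10 counts over the HDAC3i+AZA libraries and 2 over vehicle.

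Of the genes for ligands and surface partners of CD74 or for class II turnover, 6 of 7 were tested. Of these, 3 rose and 1 fell in HDAC3i+AZA, and 1 rose and 1 fell in HDAC3i, counts that with 6 genes say nothing particular against the same shares of all genes. CD83, which protects class II from MARCHF1-driven breakdown, averaged 113.9 CPM in HDAC3i+AZA, 74.6 in HDAC3i, 39.6 in AZA and 31.0 in vehicle, a log2 increase of 1.88 ± 0.061 with both drugs. The co-receptor CXCR4 rose by 0.29 and the MIF relative DDT fell by 0.70. For DDT, 51.05% of the exonic bases are shared with other genes, so its fall is that of the remaining bases. MIF itself, the ligand of CD74, had -0.25 (adjusted p = 0.69), but 94.11% of its exonic bases are shared with other genes, so its 26 counts in HDAC3i+AZA and 31 in vehicle do not measure its level. Among the other RFX genes, 4 of 7 were tested. RFX2 rose by 1.15, RFX7 fell by 0.45 and RFX1 fell by 0.30 in HDAC3i+AZA.

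The nearest tested gene on each side that does not overlap the member is given by its log2 fold change in HDAC3i against vehicle. Overlapping genes, such as DEXI for CIITA and BORCS8 and NR2C2AP for RFXANK, were left out. Next to CD74, which rose, TCOF1 (1329 bases away) fell by 0.49 (adjusted p = 1.43e-08) and RPS14 rose by 0.23 (adjusted p = 0.00347). Next to CIITA, CLEC16A (1518 bases away) was at -0.0080 and TVP23A at 0.48, neither called, and CLEC16A fell by 0.37 in AZA (adjusted p = 5.07e-05). Next to IFI30, MAST3 rose by 0.35 and MPV17L2 was at -0.15, not called. Around the genes that fell, PI4KB beside RFX5 fell by 0.30 and PSMB4 was at -0.038, not called. SMAD9 beside RFXAP rose by 0.66, and NBEA, 1146200 bases from RFXAP, was at 0.30, not called. Next to RFXANK, MEF2B at -0.31 and SUGP1 (74149 bases away) at -0.11 were not called. Next to CTSS, GOLPH3L rose by 0.26 and CTSK was at 0.30, not called.

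The genes of most similar pattern were found by the root mean square difference of centred log2 CPM over 12 libraries, among 9782 genes (9783 for IFI30) with a mean of at least 5 CPM. For CIITA these were WASF2, SREBF1 and VAMP1, at 0.060, 0.061 and 0.071 log2 units. RFX5 was followed most closely by SYPL1, CDC25C and FBXO21 at 0.036 to 0.041, and RFXAP by CHAC2, INPP5B and SON at 0.069 to 0.075. RFXANK was followed by VDAC3, RPS15A and COMMD8 at 0.044 to 0.050. CD74 was nearest to ZNF395, BCAR3 and GMPPA, at 0.052 to 0.054. CTSS was nearest to METTL7A, HSD17B7 and SQLE, at 0.053 to 0.054. For IFI30, LINC01883, PINK1 and MIR5195 lay at 0.22 to 0.23, wider than for the others.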

How the data were processed

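Poly(A) RNA of 12 OCI-Ly7 libraries was sequenced; the submitters' processing notes name bcl2fastq 2.17.1.14, cutadapt 5.1, STAR 2.7.11b, Subread 2.1.2 and GRCh38. The values are expected counts per gene deposited by the authors: per the file headers, featureCounts 2.1.1 counted exons of the release 114 annotation without strand, gave multi-mapping reads as fractions and left out reads overlapping more than 1 gene. It is unsettled if counts are of reads or of read pairs. Of the 16 libraries in the header, 4 were not analysed here. Library totals were 35947872 to 36337086 counts, and the upper limit given for 0 counts covers counting error only. The 95% intervals of fold changes come from the fit and include the spread among libraries.

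Counts were rounded and fitted with edgeR 4.0.16 in R 4.3.3: all 12 libraries together, TMM factors, filterByExpr on the 4 groups, 17869 genes, quasi-likelihood tests, two-sided, Benjamini-Hochberg adjustment. CPM are counts scaled to a library total of 1000000. SE is the log2 fold change divided by the root of F. The fit was tested on simulated data. Limma 3.58.1 (voom), DESeq2 1.42.0, other normalizations and filters, a replicate block and leaving out libraries were alternatives. Tables and figures used Python 3.11.15, numpy 2.4.6, pandas 2.3.3 and matplotlib 3.10.9.

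The members and lists were chosen with earlier results of these data known. The named genes are the 7 members. From each list came up to 2 called genes of largest rise and 2 of largest fall in HDAC3i+AZA against vehicle. Added to these were 8 fixed genes (NLRC5, PRDM1, FBXO11, SPPL2A, LGMN, CTSL, CST3, MIF). The rest are the 3 genes of most similar pattern per member and the nearest tested gene on each side that does not overlap the member. HLA-DRA was added for a ratio after its values were seen. From the lists, 2 genes are not reported here.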

Additional observations from a re-analysis of the deposited data

How the results depend on the processing

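Of 952 values recomputed under the alternatives, 918 kept their direction and their side of the threshold, 12 lost and 9 gained a call and 13 changed sign; no called value changed sign. Members called in AZA against vehicle numbered 0, but 1 with DESeq2 size factors, 2 with a filter of 5 CPM in at least 3 libraries (RFXANK and CTSS), 1 with DESeq2 and 0 to 1 when leaving out 1 library (CTSS, without HDAC3i+AZA library 2). In HDAC3i+AZA against HDAC3i there was 1, but 2 with limma voom (CD74 and CTSS), 2 without AZA 1 and HDAC3i+AZA 3, the libraries of highest mitochondrial share (RFXAP and CTSS), and 1 to 2 when leaving out 1 library. Leaving out 1 library gave 6 to 7 members in HDAC3i+AZA against vehicle and 5 to 6 against AZA. The RFXANK call in HDAC3i+AZA against vehicle was also lost with no filter on low counts (adjusted p = 0.0828). The CTSS call against AZA was also lost with library totals only, with no filter and with only the groups compared. IFI30 was not tested under the 5 CPM filter, and the interaction has no fit to only 2 groups.

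The sign changes were in 5 values, none of them called. RFXANK in HDAC3i+AZA against AZA gave 0.068 with the 5 CPM filter, 0.010 without mitochondrial genes, 0.060 without that pair, 0.0021 with only the groups compared, and -0.061 to 0.035 without 1 library. Without 1 library, RFXANK ranged from -0.0010 to 0.068 and CTSS from -0.0075 to 0.050 in HDAC3i against vehicle, CIITA from -0.089 to 0.076 in HDAC3i+AZA against HDAC3i, and IFI30 from -0.070 to 0.47 in the interaction, where it was 0.24 with all libraries. The causes were not tested. Over all genes, calls in AZA against vehicle (1619) fell to 1017 without vehicle library 1. Calls in HDAC3i+AZA against HDAC3i (1312) ranged from 690 to 1848, and calls of the interaction (128) from 35 to 689 over the fits without 1 library. The interaction gave 314 with no filter on low counts, 204 with the 5 CPM filter and 379 with DESeq2.

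Whether the replicate numbers in the titles pair the libraries was not settled. Of 18 same-numbered pairs, 4 had a correlation of deviations over 0.1, in a range of -0.21 to 0.38. Pairs of different number were not compared, so this check cannot decide whether libraries of the same number belong together. With the replicate block the members called were 5, 0, 7, 6, 1 and 0 in HDAC3i, AZA and HDAC3i+AZA against vehicle, HDAC3i+AZA against AZA and against HDAC3i, and the interaction. With the library-name number as the block they were 5, 0, 6, 6, 1 and 0, the member lost being RFXANK in HDAC3i+AZA against vehicle (0.13, adjusted p = 0.0858 in edgeR). CIITA in HDAC3i+AZA against HDAC3i gave 0.064, and the interaction called 227 genes.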
